A study of Mus musculus with 8 samples.

Results

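Elastin and the lysyl oxidases build and cross-link the elastic fibres of the aortic wall, and their transcripts were compared here between Fbn1mgR/mgR and wild-type mice. The group was defined by name as Eln, Lox, Loxl1, Loxl2, Loxl3 and Loxl4, and each gene was read from its brightest transcript cluster that carried a single gene symbol in the platform annotation. This rule gave 5 of the 6 genes, 1 cluster each, among 30142 genes with such a cluster. Loxl2 was not analysed here, because its cluster carries the symbols of several genes. RNA came from the ascending aorta of male mice aged 10 weeks on a C57BL/6J background, and each of 8 samples was read on an Affymetrix Clariom D mouse array. The Fbn1mgR/mgR group held the arrays mgR611, mgR612, mgR613 and mgR614, and the wild-type group held WT675, WT676, WT742 and WT744. Mutant mice were homozygous for mgR, a germline allele that lowers the amount of fibrillin-1 in every tissue, and both genotypes were bred from heterozygous parents. The labels do not say whether each array of a genotype is another animal, and p-values therefore reflect only sample to sample spread, which could be technical.

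Elastin is secreted by smooth muscle cells and fibroblasts as the soluble precursor tropoelastin, and is laid down on a scaffold of microfibrils made largely of fibrillin-1. Lysyl oxidases are copper-dependent amine oxidases that oxidise lysine side chains of tropoelastin and collagen, after which the chains join into covalent cross-links. In mice, loss of Lox leads to rupture of the aorta around birth and loss of Loxl1 leads to poorly renewed elastic fibres in the adult, while elastin itself is made mostly before adulthood. Loxl2, Loxl3 and Loxl4 share the catalytic domain with Lox and Loxl1, but carry scavenger receptor domains in place of a propeptide.

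The deposited values are log2 signals, so a difference of 1 is a doubling. They ran from 2.11 to 19.93, with array medians between 3.95 and 4.07. Array to array correlations across all clusters were 0.989 to 0.993 within Fbn1mgR/mgR, 0.989 to 0.992 within wild-type and 0.984 to 0.990 between genotypes. The number of arrays limits the precision. Differences are Fbn1mgR/mgR minus wild-type, tested with limma across 32957 clusters whose mean signal exceeded the median cluster's (4.01) and called at a Benjamini-Hochberg adjusted p under 0.05. All 5 measured genes passed this filter. At that threshold 1.54% of the tested clusters were higher and 0.558% lower in Fbn1mgR/mgR, 2.1% in all, and 0 of the 5 genes passed in either direction. At an unadjusted limma p under 0.05, 3 of the 5 were higher (Eln, Lox and Loxl3) and 0 were lower, where 7.45% and 6.72% of all tested clusters were. All 5 differences were above 0, as were 46.1% over all tested clusters, and 2 of the 5 (Eln and Lox) reached 1 log2 unit, as did 1.46%. Smooth muscle markers averaged 12.3 to 13.3 over the mutant arrays and 13.1 to 13.8 over the wild-type arrays. In pieces of tissue, fewer cells of a type and less RNA per cell cannot be told apart.

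Eln, which encodes tropoelastin, had log2 signals of 14.39, 13.47, 14.34 and 14.33 in mgR611, mgR612, mgR613 and mgR614, against 12.59, 13.11, 13.43 and 13 in WT675, WT676, WT742 and WT744. The genotypes did not overlap, although mgR612 lay only just above WT742 and far below the other 3 mutant arrays. Of the 5 genes 1 separated this way with the mutant on top and 0 with wild-type on top, against 5.26% and 3.65% of all tested clusters. Means were 14.13 ± 0.442 in Fbn1mgR/mgR and 13.03 ± 0.347 in wild-type arrays (mean ± SD of log2 signals, 4 arrays each). The difference was 1.10 (SE 0.240, 95% interval 0.56 to 1.64), or 2.14-fold, and missed the threshold in limma (adjusted p = 0.0536, unadjusted p = 0.00118). Taken alone, Eln gave p = 0.0286 in the exact two-sided permutation test, the smallest that 4 against 4 arrays allow.

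Lox, which encodes lysyl oxidase, had log2 signals of 8.79, 7.66, 8.31 and 8.66 in mgR611, mgR612, mgR613 and mgR614, against 7.01, 6.93, 7.81 and 7.11 in WT675, WT676, WT742 and WT744. Here mgR612 was again the lowest mutant array and WT742 the highest wild-type array, and these 2 crossed. The means were 8.36 ± 0.506 in Fbn1mgR/mgR and 7.22 ± 0.403 in wild-type arrays (mean ± SD of log2 signals, 4 arrays each). The difference of 1.14 (SE 0.278, 95% interval 0.51 to 1.76), or 2.20-fold, missed the threshold in limma (adjusted p = 0.0789, unadjusted p = 0.00243). In the exact two-sided permutation test of Lox alone, p was 0.0571.

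**Figure D1:**
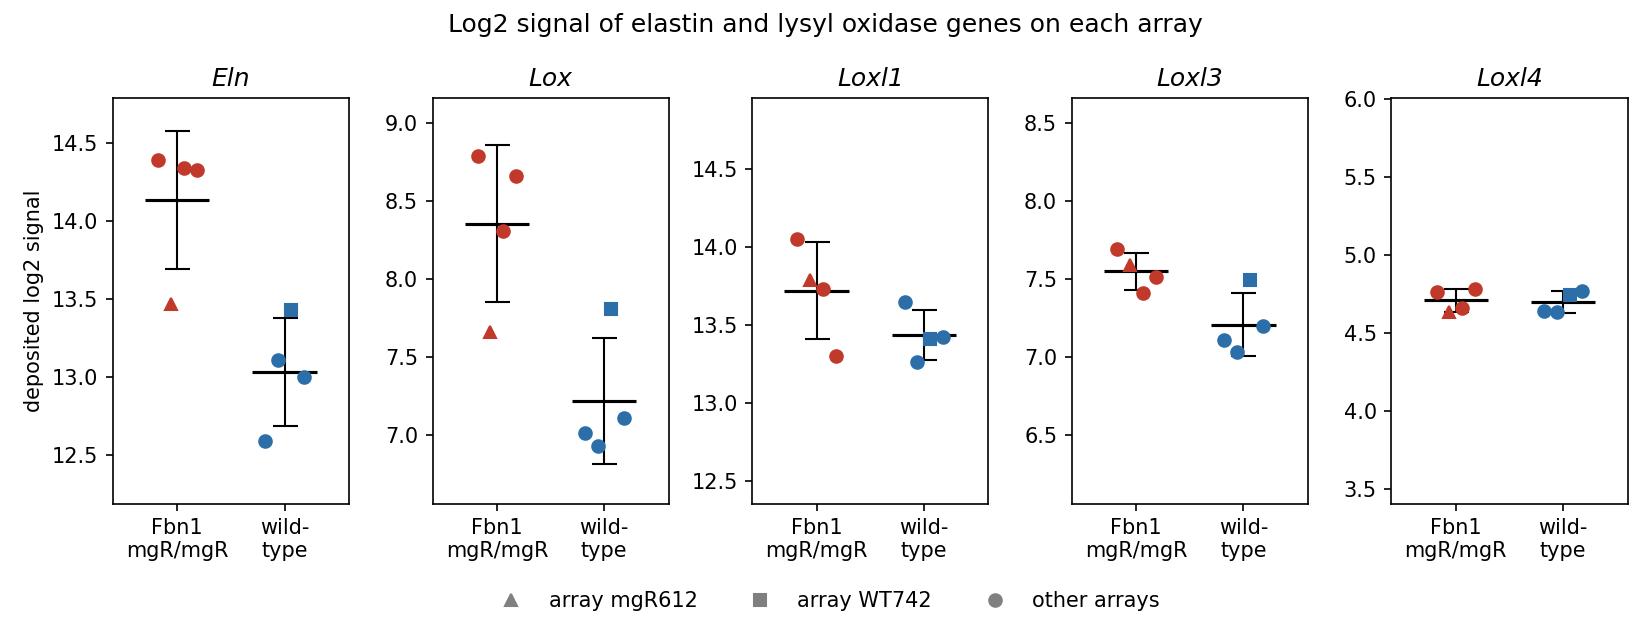
Deposited log2 signal of Eln, Lox, Loxl1, Loxl3 and Loxl4 on each array, Fbn1mgR/mgR left and wild-type right in each panel; horizontal bars are means and error bars SD (n = 4 each), and every panel spans the same height in log2 units. In the Eln and Lox panels array mgR612 sits at 13.47 and 7.66, beside array WT742 at 13.43 and 7.81.

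Loxl3, a lysyl oxidase-like enzyme, had 7.69, 7.59, 7.41 and 7.51 in mgR611, mgR612, mgR613 and mgR614, against 7.11, 7.03, 7.49 and 7.20 in WT675, WT676, WT742 and WT744. Only WT742 reached into the range of the mutant arrays. The Loxl3 difference was 0.34 (SE 0.138, 95% interval 0.032 to 0.653), or 1.27-fold, and did not pass in limma (adjusted p = 0.297, unadjusted p = 0.0340).

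Loxl1, the family member tied to elastic fibre renewal in adult mice, had 14.05, 13.79, 13.73 and 13.30 in mgR611, mgR612, mgR613 and mgR614. The wild-type arrays WT675, WT676, WT742 and WT744 had 13.65, 13.26, 13.41 and 13.42. The genotypes overlapped, with mgR614 below 3 of the wild-type arrays. The Loxl1 difference was 0.28 (SE 0.165, limma adjusted p = 0.505), and its 95% interval of -0.087 to 0.652 excluded a doubling of the signal.

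Loxl4 was the dimmest of the 5, at 4.76, 4.63, 4.66 and 4.78 in mgR611, mgR612, mgR613 and mgR614, against 4.64, 4.63, 4.74 and 4.77 in WT675, WT676, WT742 and WT744. For comparison, 1086 clusters of olfactory receptor genes had a median signal of 3.38 and a 95th percentile of 4.13. Some of these clusters passed the limma threshold themselves, so the set is not a clean background. For Loxl4 the genotypes covered nearly the same range, and the difference was 0.013 (SE 0.0863, limma adjusted p = 0.975, 95% interval -0.181 to 0.206).

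Leaving out a single array changed the Eln and Lox calls. Without mgR612, Eln differed by 1.32 (SE 0.188, adjusted p = 0.0145) and Lox by 1.37 (SE 0.238, adjusted p = 0.0314), and both passed the limma threshold. Without WT742 the differences were 1.23 for Eln (adjusted p = 0.0563) and 1.34 for Lox (adjusted p = 0.0517), and both just missed the threshold. Leaving out any of the other arrays gave 0.95 to 1.13 for Eln and 0.995 to 1.16 for Lox, and neither passed. With all 8 arrays, Eln also passed among single-symbol clusters only (adjusted p = 0.0404) and above the upper quartile of signal (adjusted p = 0.0389), where fewer clusters were tested. Over all alternatives the limma adjusted p was 0.0145 to 0.150 for Eln and 0.0314 to 0.198 for Lox. Loxl1, Loxl3 and Loxl4 did not pass in any of these fits, with adjusted p of at least 0.236, 0.177 and 0.916.

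**Figure D2:**
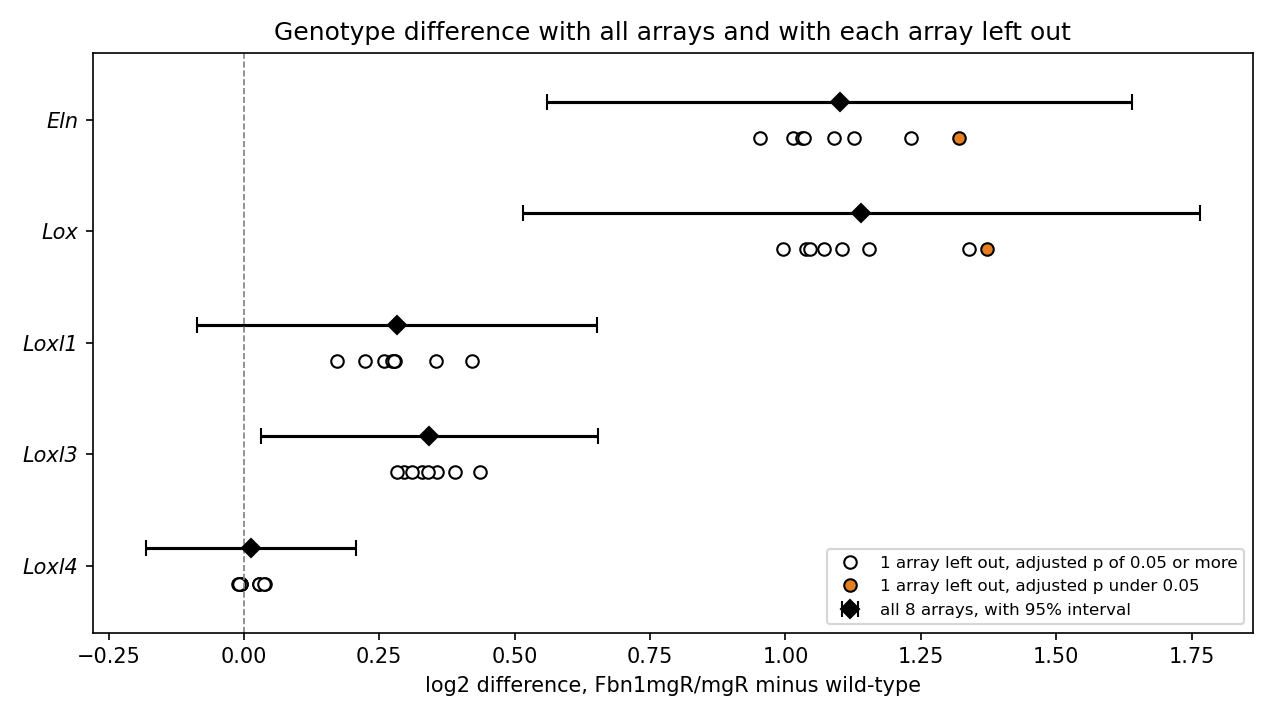
Log2 difference, Fbn1mgR/mgR minus wild-type, of each gene with all 8 arrays (diamonds, limma 95% intervals) and with each array left out in turn (circles, filled where the adjusted p was under 0.05). Eln at 1.32 and Lox at 1.37 without mgR612 are the only filled circles.

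Marker lists of cell types were also averaged on each array. For the counts of these lists, 1.54% of all tested clusters were higher and 0.558% lower in limma. All 10 macrophage markers rose, and their mean signal was 8.72 to 9.42 in Fbn1mgR/mgR arrays and 6.98 to 7.24 in wild-type arrays. Mpeg1, which encodes a pore-forming protein of phagocytes, rose by 2.59 (adjusted p = 0.000519), Itgam by 2.05 (adjusted p = 0.00103) and Cd68 by 2.40 (adjusted p = 0.00117). With 1 array left out 8 to 10 of the 10 passed, and with the mean of the smooth muscle markers as a covariate 6 did. Those whose calls were lost with that covariate were Adgre1 (adjusted p = 0.0629), Csf1r (0.178), Mrc1 (0.109) and Cd14 (0.118), named after their values were seen, and Csf1r and Cd14 also lost theirs in some fits with 1 array left out (adjusted p up to 0.105 and 0.0647). The highest macrophage mean was that of mgR612, the mutant array with the least Eln and Lox, and the lowest was that of WT742, the wild-type array with the most. The part of macrophages in the Eln and Lox differences was not tested.

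Of 10 smooth muscle markers, 0 passed in limma, with 4 lower and 0 higher before adjustment (p under 0.05) and a median difference of -0.52. Before adjustment, 6.72% of all tested clusters were lower and 7.45% higher. The largest wild-type mean was that of WT742 (13.8) and the smallest mutant mean that of mgR614 (12.3), while mgR612 had 13.04. Itga8 (-1.05, adjusted p = 0.114), Des (-0.81, adjusted p = 0.166) and Myh11 (-1.01, adjusted p = 0.226) had the smallest p in that list. With the mean of these markers as a covariate, a setting added after the data were seen, the differences were 1.20 for Eln (adjusted p = 0.150) and 1.28 for Lox (adjusted p = 0.187).

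Fibroblast markers averaged 13.1 to 13.8 in Fbn1mgR/mgR arrays, highest in mgR612, and 13.2 to 13.4 in wild-type arrays. None of 9 passed in limma, 1 was higher at an unadjusted p under 0.05, and the smallest p belonged to Dpep1 (0.82, adjusted p = 0.0803), which passed with the brown fat (adjusted p = 0.0457) or smooth muscle covariate (adjusted p = 0.00950). Dcn (-0.16, adjusted p = 0.396) and Col14a1 (0.51, adjusted p = 0.411) followed. Of 9 endothelial markers, 4 were lower and 0 higher at an unadjusted limma p under 0.05, against 6.72% and 7.45% of all tested clusters. Their median difference was -0.49, and 2 of the 9 differences were above 0. Only the transcription factor gene Erg passed, and it fell by 1.21 (adjusted p = 0.0447). The Erg call was lost without any 1 array except mgR612, with adjusted p from 0.0545 to 0.123. Pecam1 (-0.91, adjusted p = 0.174) and Tek (-0.95, adjusted p = 0.313) did not pass. Without mgR613, Pecam1 did (-1.18, adjusted p = 0.0440).

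Brown fat markers averaged 7.61 to 11.3 in Fbn1mgR/mgR and 6.71 to 11.5 in wild-type arrays, highest in mgR614 and WT676. With that mean as a covariate the differences stayed at 1.10 for Eln (adjusted p = 0.0692) and 1.14 for Lox (adjusted p = 0.0990). White fat markers averaged 7.23 to 9.83 and 7.44 to 10.2 in mutant and wild-type arrays, cardiac and skeletal muscle markers 6.25 to 6.54 and 6.04 to 7.11, and T and B cell markers 5.52 to 6.10 and 5.12 to 6.00. No marker of these lists passed in limma, and 0, 0 and 4 were higher at an unadjusted p under 0.05. At that p, 7.45% of all tested clusters were higher and 6.72% lower. Only 2 of 8 nerve and Schwann cell markers were tested, and 0 passed (1 lower at an unadjusted p under 0.05).

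Eln and Lox varied together from array to array. After each genotype mean was subtracted, their Pearson correlation was 0.854 over the 8 arrays, and without subtraction it was 0.955. These values are descriptions over the same 8 hybridisations, whose quality and cell makeup all genes share. Within genotypes Loxl4 gave 0.756 with Lox and 0.605 with Eln, while Loxl1 did not follow Eln (-0.272) or Lox (-0.061). The dim Loxl4 signal spanned only 0.15 log2 units in Fbn1mgR/mgR and 0.14 in wild-type arrays. Loxl3 stood at 0.589 with Lox and 0.291 with Eln. The 4 arrays of each genotype differed in these values: Lox and Loxl3 gave 0.151 in Fbn1mgR/mgR and 0.986 in wild-type arrays, Eln and Loxl3 -0.174 and 0.680, and Eln and Loxl1 -0.102 and -0.706. With 4 arrays each, the difference between genotypes was not tested.

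**Figure D3:**
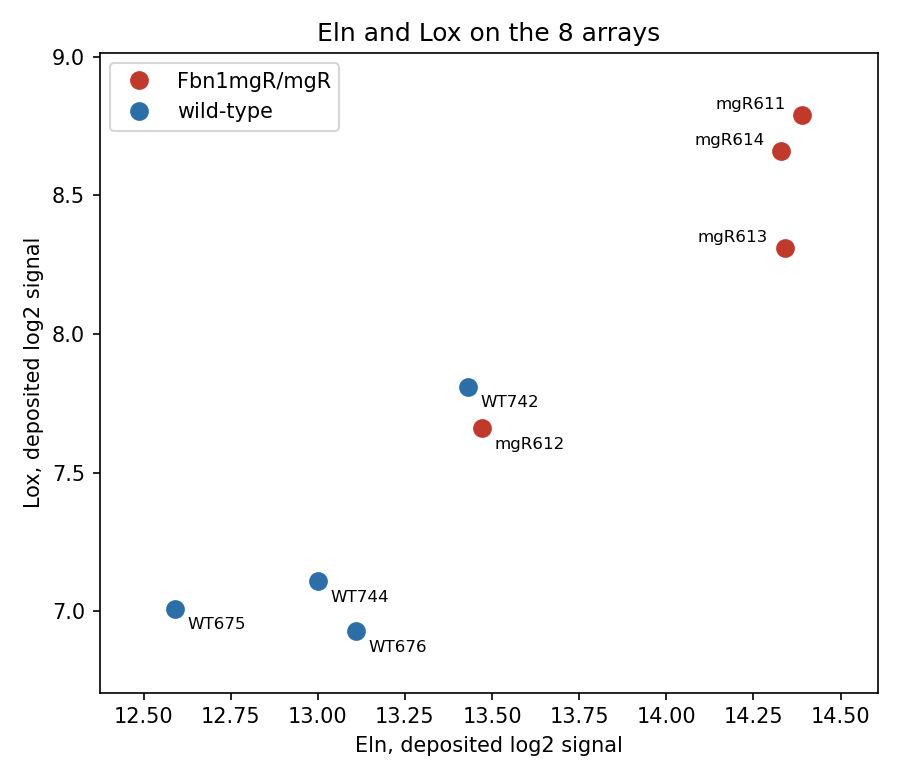
Deposited log2 signal of Lox against that of Eln on the 8 arrays, with Fbn1mgR/mgR and wild-type arrays in different colours. Array mgR612 (Eln 13.47, Lox 7.66) lies next to WT742 (Eln 13.43, Lox 7.81), between the other mutant and the other wild-type arrays.

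Whether the genes differed unequally was asked with the log2 ratio of each pair within an array, in 10 pairs. The Eln to Lox ratio differed between genotypes by -0.040 (Fbn1mgR/mgR minus wild-type; SD 0.190 and 0.278, n = 4 each; exact two-sided permutation p = 0.83). The Eln to Loxl1 ratio was higher in Fbn1mgR/mgR by 0.82 (exact p = 0.0857) and the Lox to Loxl1 ratio by 0.86 (exact p = 0.0571). Only the Eln to Loxl4 ratio separated the genotypes fully, by 1.09 (exact p = 0.0286). Loxl4 itself was dim and differed by 0.013, so this ratio largely repeats the Eln difference of 1.10. After adjustment over the 10 pairs, 0 had p under 0.05, 1 did before adjustment, and the lowest adjusted exact permutation p was 0.122. A difference in change was thus not shown for any pair, nor was equal change.

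Of 18 tested genes whose products assemble elastic fibres around tropoelastin, 0 rose and 1 fell in limma, with 2 higher and 4 lower before adjustment (p under 0.05). Over all tested clusters 1.54% rose and 0.558% fell, and 7.45% and 6.72% were higher and lower before adjustment. Differences were above 0 for 8 of the 18, and their median was -0.10, where the median over all tested clusters was -0.018. Mfap4, which encodes a microfibril-associated protein that binds elastin, had 9.85, 9.73, 10.47 and 9.55 in the mutant arrays in the order above, against 11.13, 10.81, 11.31 and 11.18 in the wild-type arrays. It fell by 1.21 (adjusted p = 0.0209) with no overlap. Its adjusted p was 0.0543 and 0.0557 without mgR612 and mgR614, and 0.0647, 0.0599 and 0.0719 without WT675, WT742 and WT744, so 0 partners passed in those fits.

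The next partners by p did not pass. Ltbp4, which guides fibulin-5 and elastin into fibres, had 11.04, 11.51, 11.06 and 9.94 in the mutant arrays, against 12.31, 12.13, 11.54 and 12.12 in the wild-type arrays, and differed by -1.14 (adjusted p = 0.120). Fbln1, which encodes an elastin-binding fibulin, differed by -0.79 (adjusted p = 0.125), and Emilin2, of a family of elastic fibre glycoproteins, by 0.88 (adjusted p = 0.127). Fbln5, which ties tropoelastin to microfibrils and to cells, averaged 14.3 in Fbn1mgR/mgR and 14.4 in wild-type arrays (difference -0.11, adjusted p = 0.883), and was named for its role after its values were seen.

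Proteins that activate or bind lysyl oxidases gave 2 that rose and 0 that fell of 9 tested, with 4 higher and 0 lower before adjustment (p under 0.05) and a median of 0.24. The shares over all tested clusters were 1.54% and 0.558%, and 7.45% and 6.72% before adjustment. Fn1, which encodes fibronectin, a binding platform for the Lox precursor, had 16.03, 15.89, 15.76 and 15.35 in the mutant arrays, against 13.05, 13.55, 14.38 and 14.12 in the wild-type arrays. It rose by 1.98 (SE 0.275, adjusted p = 0.00701). Thbs1, which encodes thrombospondin-1, a matricellular protein that binds lysyl oxidase precursors, had 14.66, 13.32, 13.14 and 13.78 in the mutant arrays and 10.98, 11.02, 11.50 and 11.61 in the wild-type arrays. It rose by 2.45 (SE 0.315, adjusted p = 0.00522), and neither gene lost its call without any array.

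Postn, which encodes periostin, a promoter of Lox activation by Bmp1, differed by 0.87 (adjusted p = 0.153), and Pcolce, the enhancer of procollagen C-proteinase, by 0.36 (adjusted p = 0.322). Bmp1, the protease that cleaves the Lox propeptide, differed by 0.25 (adjusted p = 0.616) and its relative Tll1 by -0.33 (adjusted p = 0.548). Both were named for that role after their values were seen.

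Of 7 tested genes of copper supply, on which lysyl oxidases depend, 0 passed in limma and 2 were higher at an unadjusted p under 0.05 (median -0.018). At that p, 7.45% of all tested clusters were higher. Atox1, the chaperone that hands copper to the secretory pathway, differed by 0.57 (adjusted p = 0.208), and the copper importer gene Slc31a1 by 0.33 (adjusted p = 0.214). The metallothionein gene Mt1 (-0.61, adjusted p = 0.604) and Commd1 (0.14, adjusted p = 0.689) followed. Atp7a, the pump that loads copper into secreted enzymes, had a difference of -0.033 (adjusted p = 0.952). It, too, was named for its role after its values were seen.

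Among collagen substrates of the enzymes, 1 of 10 tested fibrillar collagen chains rose and 0 fell, with 3 higher and 0 lower before adjustment (p under 0.05) and a median of 0.11. Of all tested clusters 1.54% rose and 0.558% fell, with 7.45% higher and 6.72% lower before adjustment. Col1a1, a chain of type I collagen, had 9.29, 9.32, 9.12 and 8.98 in the mutant arrays, against 8.19, 8.01, 8.17 and 8.41 in the wild-type arrays, and rose by 0.98 (SE 0.141, adjusted p = 0.00837). Col5a2 (0.50, adjusted p = 0.153), Col1a2 (0.36, adjusted p = 0.344) and Col3a1 (0.25, adjusted p = 0.484) did not pass. Unlike Eln and Lox, Col1a1 was not low in mgR612.

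None of 6 collagen IV chains passed in limma, with 2 higher and 1 lower before adjustment (p under 0.05) and a median of -0.15. Before adjustment, 7.45% of all tested clusters were higher and 6.72% lower. Col4a2, of the main basement membrane pair, had 6.58, 6.25, 6.34 and 6.61 in the mutant arrays, against 5.69, 5.72, 6.19 and 5.90 in the wild-type arrays (0.57, adjusted p = 0.0988). Its lowest mutant and highest wild-type values were those of mgR612 and WT742, as for Eln and Lox. Col4a6 (-0.29, adjusted p = 0.155), Col4a1 (0.36, adjusted p = 0.349) and Col4a3 (-0.17, adjusted p = 0.417) followed.

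Of 7 tested proteases that degrade elastin 2 rose and 0 fell, with 3 higher before adjustment (p under 0.05) and a median of 0.41. Over all tested clusters 1.54% rose and 0.558% fell, and 7.45% were higher before adjustment. Ctss, which encodes the elastolytic cathepsin S of macrophages, had 11.33, 12.14, 11.84 and 11.88 in the mutant arrays, against 9.06, 8.83, 8.60 and 8.75 in the wild-type arrays, and rose by 2.99 (adjusted p = 0.000336). Mmp12, macrophage elastase, had 8.42, 8.55, 9.02 and 7.81 in the mutant arrays, against 6.26, 6.70, 5.95 and 5.79 in the wild-type arrays, and rose by 2.28 (adjusted p = 0.00385). Array mgR612, the lowest mutant array for Eln and Lox, was the highest for Ctss and lay between mgR611 and mgR613 for Mmp12. Mmp14 (0.73, adjusted p = 0.137) and Ctsl (0.27, adjusted p = 0.371) did not pass. Mmp9, Elane, Prtn3, Ctsg and Mmp7, the remaining 5 of this list, lay below the filter.

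Lgals3, which encodes the elastin-binding lectin galectin-3, rose by 0.84 (adjusted p = 0.0121), the 1 of 6 tested genes of elastin receptors and elastin-binding integrins that passed (median 0.056, 0 lower at an unadjusted p under 0.05). Galectin-3 is also a product of macrophages. For this list and the next, 1.54% of all tested clusters rose and 0.558% fell. Before adjustment 7.45% were higher and 6.72% lower. Itgav (0.17, adjusted p = 0.574), Itgb3 (0.11, adjusted p = 0.884) and Neu1 (-0.035, adjusted p = 0.937) did not pass. Of 6 other matrix cross-linking enzymes 1 rose and 0 fell (2 higher at an unadjusted p under 0.05, median 0.28). That gene was F13a1, the transglutaminase factor XIII A of tissue macrophages, at 1.36 (adjusted p = 0.0251). It missed the threshold without mgR613, mgR614 or any wild-type array, with adjusted p from 0.0546 to 0.0750.

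Tgm1 (0.42, adjusted p = 0.221), Plod1 (0.22, adjusted p = 0.611) and Plod2 (0.28, adjusted p = 0.652) did not pass. Aoc3, a copper amine oxidase of smooth muscle cells and adipocytes unrelated in sequence to Lox, had a difference of -0.78 (adjusted p = 0.0853), and Aoc2 one of 0.033 (adjusted p = 0.944), the 2 tested genes of that list.

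**Figure D4:**
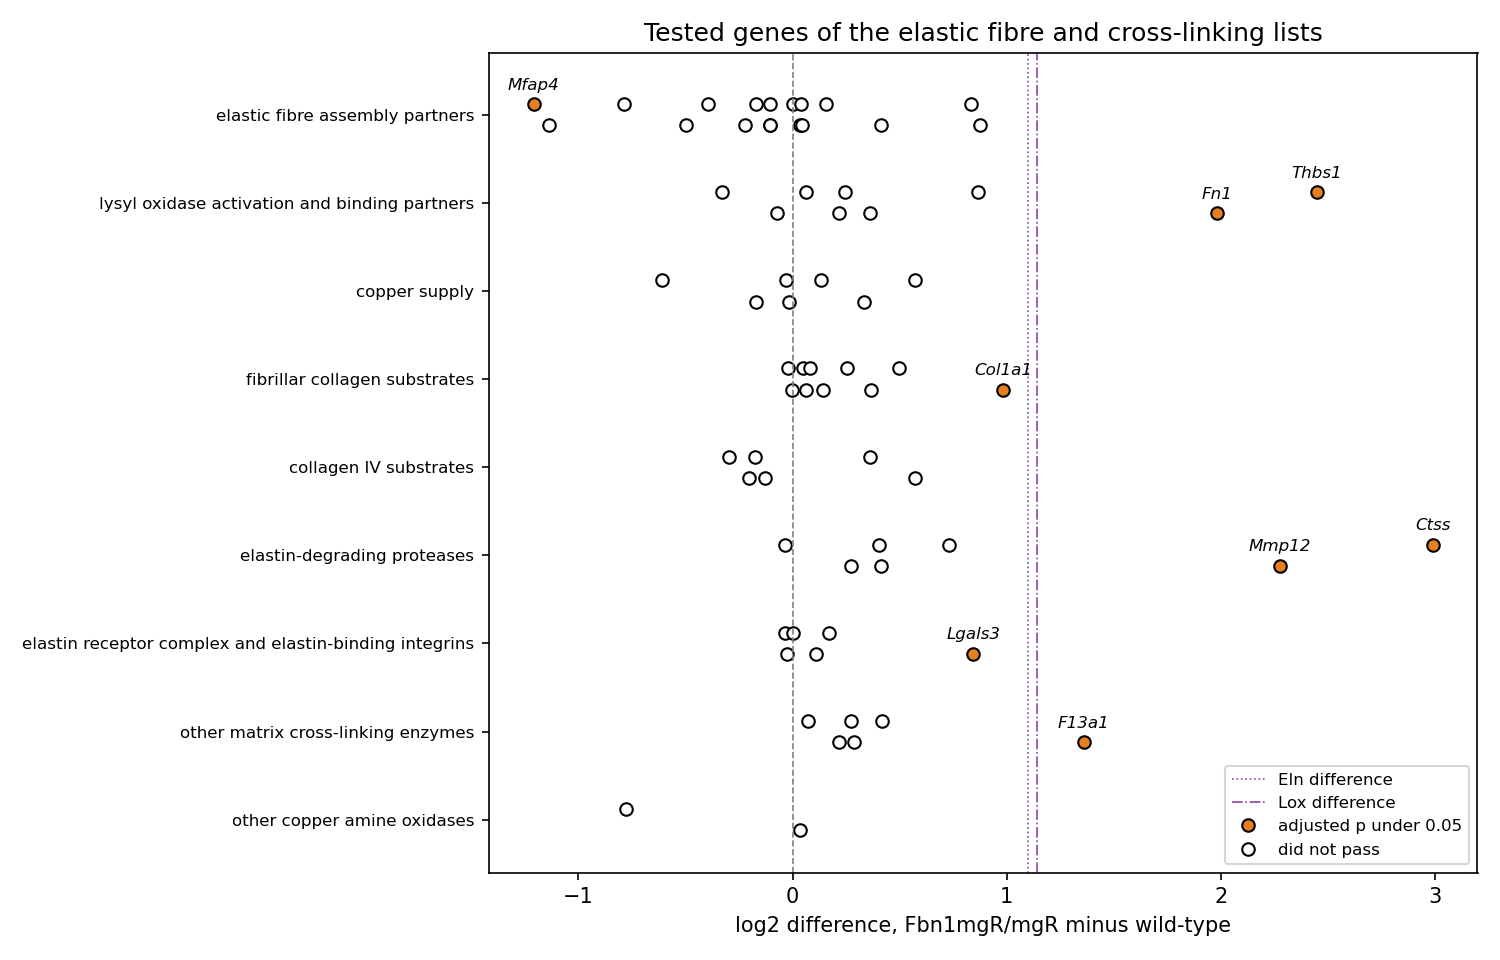
Log2 difference, Fbn1mgR/mgR minus wild-type, of each tested gene (circle) in the 9 lists around elastin and lysyl oxidases, filled and named where the limma adjusted p was under 0.05; vertical lines mark the Eln (1.10) and Lox (1.14) differences. Of the named genes, Mfap4 at -1.21 lies lower in the mutant, and Thbs1 at 2.45 and Ctss at 2.99 lie farthest to the right.

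Genes that neighbour these loci in RefSeq were read as a description of their surroundings. Of the 10 nearest protein-coding genes, 1 on each side of each gene, 7 were tested. Limk1, which lies next to Eln and encodes a kinase of actin turnover, had 5.48, 5.89, 5.87 and 5.81 in the mutant arrays, against 5.06, 5.19, 5.27 and 5.23 in the wild-type arrays. It rose by 0.57 (SE 0.120, adjusted p = 0.0442). This call was lost without any 1 array except mgR611 (adjusted p from 0.0794 to 0.126), and Limk1 was not low in mgR612. The other 6 did not pass, with differences from -0.27 (R3hcc1l, beside Loxl4) to 0.25 (Dok1, beside Loxl3).

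The genes most like each member from array to array were ranked among 13153 named, tested genes by the Pearson correlation of deviations from the genotype means over the 8 arrays. For Lox these were Lbh (0.966), Camk2a (0.966), Il1f9 (0.963), Col4a1 (0.960) and Col9a3 (0.960). Without subtraction of the genotype means they stood at 0.971, 0.681, 0.723, 0.955 and 0.308. Camk2a, Il1f9 and Col9a3 were dim, with Fbn1mgR/mgR means of 4.2, 4.2 and 4.5, where the filter cut was 4.01. Lbh, which encodes a transcription cofactor, also followed Lox without that subtraction (0.971) and rose to 10.7 ± 0.391 in Fbn1mgR/mgR arrays, against 9.39 ± 0.204 in wild-type arrays (log2, SD, n = 4 each), by 1.28 (adjusted p = 0.0149). Its adjusted p was 0.0528 without WT675 and 0.0533 without WT744.

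For Eln the most similar were Lrrc27 (0.993), Dzip1l (0.970), Gpc1 (0.966), Dio2 (0.964) and Tmcc2 (0.956). Without the subtraction these stood at 0.819, 0.899, -0.127, 0.349 and 0.832. All correlations of this ranking describe 8 shared arrays, were picked as the highest among 13153 genes and were not tested. Loxl1 was most like Eid2 (0.976), Rngtt (0.972), Tmem115 (0.970), Slc25a30 (0.961) and Mb21d2 (0.955), at 0.982, 0.230, 0.663, 0.209 and 0.464 without the subtraction. For Loxl3 the ranking gave Mir446q (0.969), Itga10 (0.967), Olfr935 (0.961), Adgrb1 (0.959) and Mamdc4 (0.957), and without the subtraction 0.422, 0.543, 0.056, 0.888 and -0.074. Adgrb1 and Mamdc4 were dim and hardly varied in Fbn1mgR/mgR arrays (4.27 ± 0.024 and 4.35 ± 0.017, mean ± SD). For Loxl4 it gave Opa3 (0.979), Ube2f (0.970), Tnfrsf25 (0.966), Zfand4 (0.963) and Aars2 (0.962), and without the subtraction 0.959, 0.744, 0.966, 0.955 and 0.610. Gpc1, Tmcc2, Eid2, Olfr935, Tnfrsf25, Zfand4 and Aars2 were dim as well, with Fbn1mgR/mgR means from 4.26 to 4.56.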

How the data were processed

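RNA samples of the ascending aorta were read on Affymetrix Clariom D mouse arrays, 8 in all. The deposited values are the authors' log2 signal of each transcript cluster, on a common scale across arrays. A Transcriptome Analysis Console of unstated version appears in the submitters' processing notes, while the normalization method is not given in the sources used here. Of 65956 clusters, 30604 carried 1 gene symbol, 2146 several and 33206 none. Through RefSeq gene IDs (GRCm38.p6) 827 symbols were updated, and RefSeq also gave the order of neighbouring genes. Groups came from the sample titles.

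A linear model with an intensity trend (lmFit and eBayes, limma 3.58.1 in R 4.3.3) was fitted to all clusters, with p-values adjusted over those above the median mean signal. Every adjusted p of a gene is limma's. Exact permutation tests used 70 labellings. Tables were handled in Python 3.11.15 with pandas 2.3.3. The members and the 18 gene lists (9 of pathways, 9 of cell type markers) were chosen with earlier results of these data known. Named were all members, the called genes of each pathway list and otherwise its 4 with the smallest p, up to 3 of each marker list, and the 5 most similar genes per member. Fbln5, Bmp1, Tll1, Atp7a and the neighbouring genes fall outside this rule. Markers of fat, heart and skeletal muscle, nerve and lymphocytes are given mainly as list means.

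The test was tried on simulated data modelled on this comparison, with 32978 clusters tested. It called 56% of the clusters given a change of 1 log2 unit and 89% of those given 2, with 0 wrong signs, and 9 unchanged clusters. Clusters as dim as Loxl4 were given no change, and clusters were drawn independently of each other. Fewer clusters were given a change than were called in the real data, so these shares need not carry over to Eln or Lox. The median SE of the tested clusters in the real data was 0.151, below those of Eln (0.240) and Lox (0.278). Alternatives in filter, scaling, weights, covariates, threshold and arrays left out are given in the closing section.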

Additional observations from a re-analysis of the deposited data

Results flagged for a closer look

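In groups of 4 arrays, 1 array stood apart from the other 3 by Dixon's criterion in 9 of 166 groups checked. Chance gives about 1 in 20. Eln was 13.47 in mgR612, against 14.33 to 14.39 in the other Fbn1mgR/mgR arrays. The mean of the brown fat markers was 11.259 in mgR614, against 7.61 to 7.70 in the other mutant arrays, and Otop1 of that list was 7.23 there, against 4.68 to 5.10. In the same array Tgm1 was 5.30, against 4.75 to 4.81, and the nerve marker Ncam1 8.77, against 9.57 to 9.69. Among wild-type arrays, WT675 had 6.00 for Myh6 (4.55 to 4.73 in the others), 10.91 for Tnnt2 (8.93 to 9.22), both genes of heart muscle, and 7.21 for Itgav (7.41 to 7.43). Col1a2 was 9.34 in WT744, against 9.08 to 9.11 in the other wild-type arrays. The part of these arrays' tissue makeup in the Eln and Lox values was not tested.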

How the results depend on the processing

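Over all alternatives run the Eln, Lox, Loxl1 and Loxl3 differences kept their direction. The Eln difference of 1.10 passed with single-symbol clusters only (adjusted p = 0.0404) and above the upper quartile of signal (adjusted p = 0.0389). Fewer clusters were tested in both. Its exact permutation p of 0.0286 is that of Eln alone, not adjusted over clusters, and is the smallest that 4 against 4 arrays allow. With 1 array left out the Eln difference ranged from 0.9525 to 1.3208, and that of Lox from 0.995 to 1.3717. Loxl4 changed sign with array weights (-0.0044) and ranged from -0.0117 to 0.0383 with 1 array left out. Clusters called higher numbered 507 and lower 184. These counts were 172 and 37 with the smooth muscle covariate, 187 and 40 at an adjusted p under 0.01, 816 and 393 at one under 0.1, and 272 to 524 and 66 to 146 with 1 array left out. Without the filter 99 were lower. Fitted on the tested clusters alone they were 460 and 153; this setting and the smooth muscle covariate were chosen after seeing the data.

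With the smooth muscle covariate Commd1 (-0.0249) and Aoc2 (-0.026) changed sign, and the calls of Mfap4, Lgals3, F13a1, Erg, Limk1, Lbh and 4 of the 10 macrophage markers were lost. Erg and Limk1 also lost theirs with median centring (adjusted p = 0.0612 and 0.0724) and without the filter (0.0867 and 0.0860). Further losses were those of Erg with array weights (adjusted p = 0.0511) and with the fit on the tested clusters alone (0.0577). Limk1 lost its call with the brown fat covariate as well (adjusted p = 0.0625). With 1 array left out, differences crossed 0 for Itgb3 (-0.0125 to 0.2942), Neu1 (-0.1092 to 0.0275), Aoc2 (-0.0267 to 0.1067), Dio2 (-0.3792 to 0.1675), Otop1 (-0.8775 to 0.4775), Lipe (-0.8192 to 0.0633), Plin1 (-0.7908 to 0.2567), Retn (-1.0 to 0.095) and Pmp22 (-0.1958 to 0.0342). Tnnt2 passed without WT675 (1.32, adjusted p = 0.0367), and Ncam1 with the brown fat covariate (-0.997, adjusted p = 0.0267), single-symbol clusters only (0.0469) or the upper quartile filter (0.0451). The cause of these shifts was not tested. The labels give no pairing of arrays, and the genotypes share 0 replicate numbers, so no paired analysis was run. Loxl2 was not tried, because clusters that carry several symbols were not assigned to a gene, and a second cluster per gene could not be, since each measured member has 1 single-symbol cluster. Signals as low as that of Loxl4 limit what can be detected.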
